A study of Mus musculus with 8 samples.

Results

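The 37 genes described here belong to the integrated stress response and to the amino acid metabolism that it controls, and they were chosen by symbol from a list of stress regulators, serine and folate enzymes, amino acid transporters and cytosolic tRNA synthetases, with the synthetases under their older symbols. Of these, 36 had a row among the 22518 genes of the expression table, and 33 had a mean of at least 1 FPKM (fragments per kilobase of transcript, scaled to the mapped fragments of a library) over the 8 libraries and entered the test. Fgf21, Gdf15 and Slc7a11 were below that level, and Slc7a5 was not analysed here. The libraries came from whole hearts of C57BL/6 mice at postnatal day 12. There were 4 from wild type littermates and 4 from mice with an endothelial knockout of the oxygen-sensing prolyl hydroxylases PHD2 and PHD3. The labels give no Cre driver and no other allele or treatment, and do not state that libraries came from separate animals, in which case the spread behind a p-value may be technical.

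The integrated stress response starts when a kinase phosphorylates the translation factor eIF2 on its alpha subunit, which slows protein synthesis and at the same time favours translation of the ATF4 messenger RNA. ATF4 is therefore regulated largely at translation, and its activity is usually read from its targets. These include feedback regulators, amino acid transporters, enzymes that make serine, asparagine and one-carbon units on folate, and the synthetases that charge tRNAs with amino acids. In heart muscle this programme is known from mitochondrial disease, where the mitochondrial folate enzymes and the secreted factors FGF21 and GDF15 are common markers.

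In the knockout hearts 7 of the 33 tested members rose and 0 fell at an adjusted p under 0.05 (limma, adjusted over 11390 genes). Among all tested genes 6.15% rose and 6.01% fell. The members were chosen with earlier results of these data known, so the counts in this paragraph are descriptions and no test of the list. The 7 were the feedback kinase-like gene Trib3, the asparagine synthetase gene Asns, the mitochondrial folate genes Mthfd2, Mthfd1l and Shmt2, and the alanyl- and seryl-tRNA synthetase genes Aars and Sars. The 4 knockout values lay above the 4 wild type values in 11 of the 33 members, against 10.3% of all tested genes, and below them in 0, against 10.4%. The median log2 change was 0.17 over the tested members and -0.01 over all tested genes, and 23 of the 33 were above 0, against 48.3% of all genes. The messenger RNA of Atf4 itself did not pass the test. The number that rose was 4 without knockout replicate 2 and 3 with a filter at 5 FPKM. In a stricter limma test, of whether a change exceeds 1.5-fold, 0 were called. That test is no cutoff on the estimate: the means of Mthfd1l, Mthfd2, Trib3 and Asns were 2.55-, 2.52-, 2.42- and 1.87-fold higher. A change here is a difference of log2(FPKM + 1), knockout minus wild type, which understates the change of low genes, and each level below is in FPKM.

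The promoters of the raised members are shown first, because ATF4 binds its targets at a composite site with the core TGATGNAA, where N is any base. RefSeq promoter windows of 300 bases (250 before and 50 from the annotated start, GRCm38.p6) were matched for 31 of the 37 members. Aldh1l2, Slc7a5, Cars, Lars, Nars and Wars were not matched. The core, searched on both strands, was in 11 of the 35 windows of these members, or 31.4%, and in 3.97% of all 32851 windows. The list was made of genes known in the ATF4 response, so a share above that of all windows is no result of these data. Of the 7 raised members, 3 held it (Trib3, Asns and Aars), and so did 8 of the 24 matched members that were not called or not tested. The windows of Sesn2, Shmt2, Mthfd1l, Mthfd2, Sars and the other matched members did not contain these letters, which says nothing of sites elsewhere. The 3 raised members with a match are printed on the gene's own strand from 250 bases before to 30 after the start, with the 8 bases of each match in capitals. A match on the opposite strand appears as the reverse complement.
Trib3 promoter, chr2:152344031-152344310, minus strand: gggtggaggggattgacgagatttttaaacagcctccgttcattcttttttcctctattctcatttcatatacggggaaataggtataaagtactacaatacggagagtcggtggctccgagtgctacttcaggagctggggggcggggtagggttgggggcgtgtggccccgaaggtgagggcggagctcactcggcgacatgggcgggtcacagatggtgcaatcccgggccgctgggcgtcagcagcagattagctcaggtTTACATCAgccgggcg
Asns promoter, chr6:7693180-7693459, minus strand: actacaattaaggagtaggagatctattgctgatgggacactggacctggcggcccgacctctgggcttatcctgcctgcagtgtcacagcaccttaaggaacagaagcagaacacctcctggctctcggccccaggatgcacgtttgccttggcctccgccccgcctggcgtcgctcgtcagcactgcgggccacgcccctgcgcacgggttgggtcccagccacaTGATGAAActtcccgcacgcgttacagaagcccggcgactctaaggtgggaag
Aars promoter, chr8:111033592-111033871, plus strand: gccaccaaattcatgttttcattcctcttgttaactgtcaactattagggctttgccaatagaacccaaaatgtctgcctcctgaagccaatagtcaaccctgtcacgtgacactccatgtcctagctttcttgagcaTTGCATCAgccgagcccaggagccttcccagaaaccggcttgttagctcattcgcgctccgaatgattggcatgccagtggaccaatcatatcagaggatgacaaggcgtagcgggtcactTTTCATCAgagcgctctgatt

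In Asns the match was on the gene's strand, from 23 to 16 bases before the start. In Aars there were matches at 112 to 105 bases before the start and from base 10 to base 17 after it, and in Trib3 from base 15 to base 22, all on the opposite strand. A member that was not called is not thereby shown to be unchanged. The 9 matches in members that were not called or not tested are printed as 24 bases each in the direction of the core.
Atf3, chr1:191183428-191183451: ggacttggTGATGCAAgtgcgaga
Chac1, chr2:119351041-119351064: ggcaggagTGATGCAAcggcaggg
Fgf21, chr7:45615614-45615637: tggacggaTGATGCAAtggggggg
Slc7a11, upstream site, chr3:50443664-50443687: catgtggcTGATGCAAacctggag
Slc7a11, downstream site, chr3:50443645-50443668: ctgcatgaTGATGCAAattctcca
Gars, chr6:55037963-55037986: ccggtgcaTGATGAAAtagcgcag
Iars, chr13:49682129-49682152: tctggaggTGATGCAAtactgaca
Tars, chr15:11399658-11399681: taaccagcTGATGCAAcgggactc
Yars, chr4:129189898-129189921: agctcagcTGATGCAAcccgacgg

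Every one of these except that of Gars read TGATGCAA, as did the upstream match of Aars. The stress regulators Atf3 and Chac1 and the synthetase genes Gars, Iars, Tars and Yars thus carried the core, as Trib3, Asns and Aars did, but were not called, while the other 4 raised members had no match in these windows. A match is a description of the sequence and was not tested for binding.

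Among regulators and feedback genes, 1 of 9 tested members rose (11.1%, against 6.15% of all tested genes). Trib3 encodes a pseudokinase that is induced by ATF4 and restrains it (chromosome 2, 152337422 to 152344032 in mm10). It was at 1.25, 1.94, 1.74 and 1.74 FPKM in wild type hearts (here and below in the order of replicates 1 to 4) and at 4.31, 4.19, 2.40 and 5.26 FPKM in the knockout libraries. Every knockout library was above every wild type library, with replicate 3 the lowest of the knockouts. The mean rose 2.42-fold (log2 change 0.89 ± 0.18 SE, limma adjusted p = 0.0129). The call of Trib3 held in 8 of 8 omissions of a single library, with an adjusted p of up to 0.0404.

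**Figure D1:**
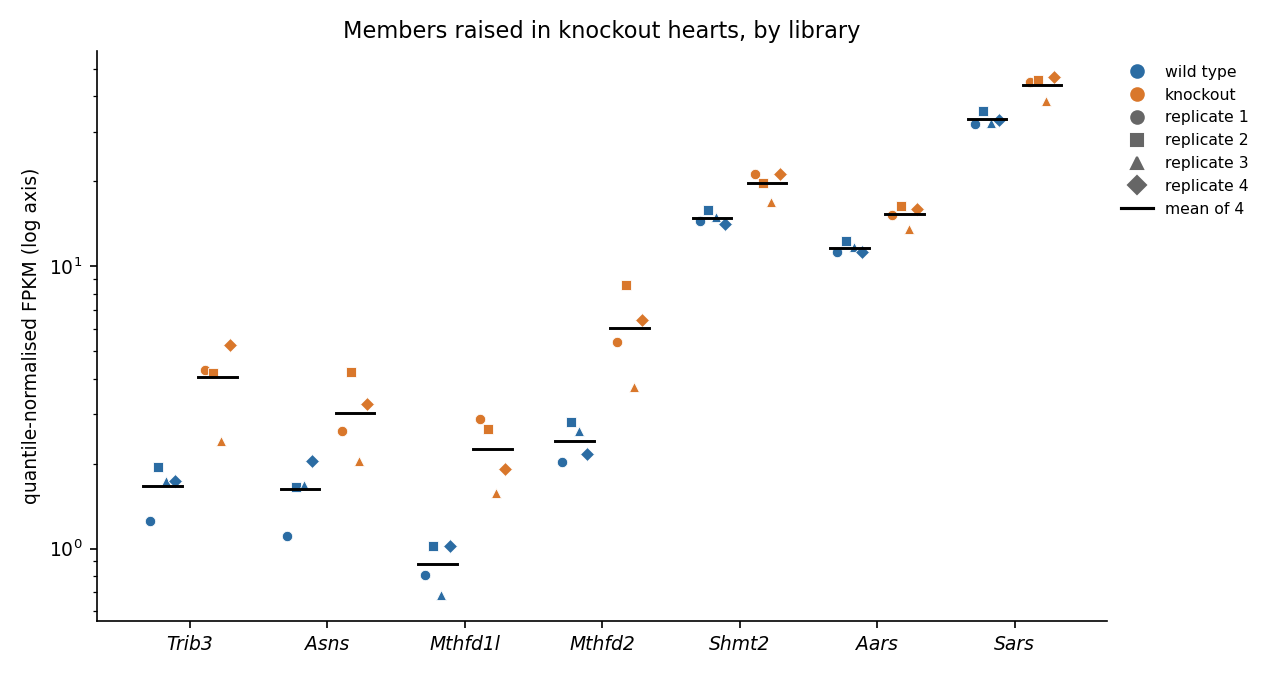
Level of the 7 raised members on a log axis in quantile-normalised FPKM; wild type libraries are blue and knockout libraries orange, the shape of a point gives its replicate number, and black lines are means of 4 libraries. Knockout replicate 3, a triangle, is the lowest knockout library in all 7 genes, and Asns is the 1 gene whose groups touch, at 2.05 in wild type replicate 4 and 2.04 FPKM in knockout replicate 3.

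Atf4 was the most abundant member, at 66.2, 74.3, 62.4 and 64.0 FPKM in wild type hearts and 75.3, 63.5, 55.2 and 63.2 FPKM in knockout hearts. Both the highest and the lowest of these were knockout libraries, and the groups overlapped throughout. The log2 change was -0.06 ± 0.10 SE with a 95% confidence interval of -0.29 to 0.17 (limma adjusted p = 0.741). Atf5, a related factor that is also translated preferentially under stress, was at 16.5 ± 1.28 FPKM (SD, n = 4) in wild type hearts and 17.3 ± 2.49 FPKM in knockout hearts. Ddit3, which encodes the pro-apoptotic factor CHOP, was at 16.1, 18.1, 16.4 and 16.7 FPKM in wild type hearts and 18.0, 12.5, 8.95 and 14.8 FPKM in knockout hearts. Its log2 change was -0.33 with an interval of -0.71 to 0.05 (limma adjusted p = 0.221). So 3 of 4 knockout libraries lay below the wild type libraries in Ddit3, while replicate 1 lay within them.

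Chac1, a glutathione-degrading enzyme downstream of ATF4 and CHOP, was at 2.77 ± 0.941 FPKM in wild type hearts and 2.34 ± 1.05 FPKM in knockout hearts (interval of the log2 change -0.69 to 0.30). Cebpb, a bZIP partner of ATF4, was at 6.25 ± 1.25 and 5.41 ± 0.964 FPKM. Ppp1r15a encodes GADD34, the phosphatase subunit that reverses eIF2 phosphorylation. It was at 13.5 ± 1.02 and 14.3 ± 3.47 FPKM. Sesn2, a leucine sensor that restrains mTORC1, was at 1.23, 1.32, 1.29 and 0.833 FPKM in wild type hearts and 1.95, 1.91, 1.43 and 2.36 FPKM in knockout hearts. Its groups did not overlap, but it missed the threshold (log2 change 0.42 ± 0.12 SE, limma adjusted p = 0.0529), and it passed without knockout replicate 3 (adjusted p = 0.0402).

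Knockout replicate 1 stood apart in 2 stress genes. Atf3, a rapidly induced repressor of the same family, was at 3.35, 3.78, 2.73 and 5.96 FPKM in wild type hearts and 21.9, 4.37, 3.92 and 3.37 FPKM in knockout hearts. Without that library the log2 change of Atf3 went from 0.57 to 0.02. Gdf15, a secreted stress hormone, was at 0.194, 0.416, 0.613 and 0.188 FPKM in wild type hearts and 3.00, 0.688, 0.429 and 0.451 FPKM in knockout hearts. Without the filter on low values Gdf15 had an adjusted p of 0.367 in limma. Fgf21, the other hormone, was listed at 0 in 6 libraries, at 0.0395 FPKM in knockout replicate 1 and at 0.0861 FPKM in knockout replicate 4.

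**Figure D2:**
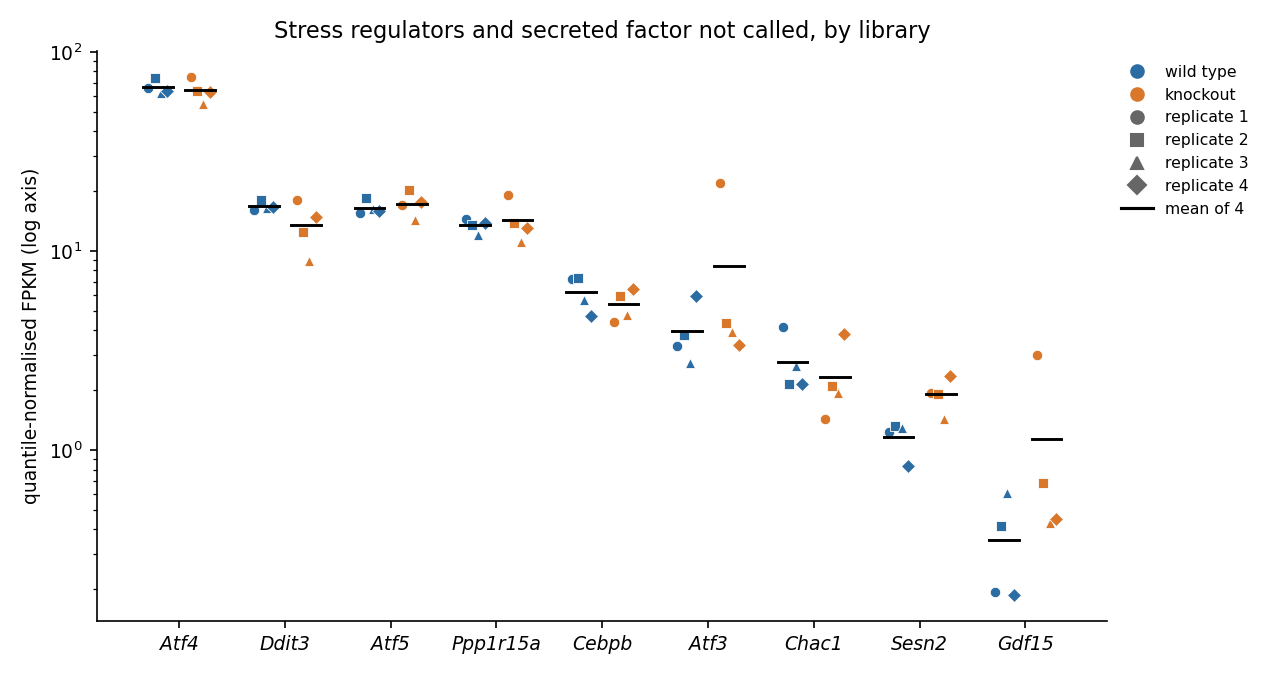
Level on a log axis in quantile-normalised FPKM of 8 regulators that were not called and of Gdf15; wild type libraries are blue and knockout libraries orange, the shape of a point gives its replicate number, and black lines are means of 4 libraries. Knockout replicate 1, a circle, lies far above the rest in Atf3 at 21.9 and in Gdf15 at 3.00 FPKM, while Atf4 lies between 55.2 and 75.3 FPKM in all libraries.

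Asns, which makes asparagine from aspartate and glutamine, rose (chromosome 6, 7675169 to 7693254). It was at 1.11, 1.65, 1.68 and 2.05 FPKM in wild type hearts and 2.61, 4.22, 2.04 and 3.25 FPKM in knockout hearts. Knockout replicate 3 lay just under the highest wild type value, so the groups met. The mean was 1.87-fold higher (log2 change 0.60 ± 0.17 SE, limma adjusted p = 0.0494). This call lies at the threshold. It was lost without wild type replicate 1 (adjusted p = 0.106), 2 (0.117), 3 (0.0918) or 4 (0.0642), without knockout replicate 2 (0.107) or 4 (0.0813), and with no filter on low values (0.0855).

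Of the 3 serine synthesis genes 0 were called. Phgdh, the entry enzyme from glycolytic 3-phosphoglycerate, was at 2.61 ± 0.486 FPKM in wild type hearts and 3.54 ± 0.563 FPKM in knockout hearts (log2 change 0.33 ± 0.12 SE, limma adjusted p = 0.103). Psat1, the aminotransferase that follows it, was at 3.06, 4.20, 2.88 and 4.75 FPKM in wild type hearts and 5.40, 5.42, 4.70 and 5.12 FPKM in knockout hearts. The 4 knockout values were close together and 1 of them was under the highest wild type value. The log2 change of Psat1 was 0.40 ± 0.13 SE (limma adjusted p = 0.0742), and it passed without wild type replicate 4 (0.0417). Psph, the phosphatase of the last step, was at 6.60, 6.38, 6.77 and 10.4 FPKM in wild type hearts and 4.92, 7.02, 6.83 and 6.84 FPKM in knockout hearts. Wild type replicate 4 was the high library in Psph, and knockout replicate 1 the low one.

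The folate gene Mthfd2 had the largest log2 change of the 33 tested members. In its group 3 of 6 tested members rose, against 6.15% of all tested genes, all 3 of mitochondrial enzymes, with a median log2 change of 0.37. Mthfd2, the dehydrogenase and cyclohydrolase that oxidises methylene-tetrahydrofolate in mitochondria (chromosome 6, 83305691 to 83325908), was at 2.03, 2.81, 2.60 and 2.16 FPKM in wild type hearts and 5.41, 8.59, 3.73 and 6.45 FPKM in knockout hearts. The lowest knockout library was above the highest wild type library. The mean rose 2.52-fold (log2 change 1.01 ± 0.19 SE, limma adjusted p = 0.0108). Mthfd1l, which releases formate from mitochondria (chromosome 10, 3973118 to 4167081), was at 0.806, 1.02, 0.686 and 1.02 FPKM in wild type hearts and 2.87, 2.66, 1.58 and 1.91 FPKM in knockout hearts. Its groups were also apart, at a low level, with knockout replicates 1 and 2 the highest. The mean of Mthfd1l rose 2.55-fold (log2 change 0.77 ± 0.14 SE, limma adjusted p = 0.00953). The wild type mean of Mthfd1l, 0.884 FPKM, was under the filter of 1 FPKM, and the gene entered the test through its knockout mean of 2.25 FPKM; with no filter on low values its adjusted p in limma was 0.0198. The calls of Mthfd2 and Mthfd1l held in 8 of 8 omissions.

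Shmt2, which transfers a carbon from serine to folate in mitochondria (chromosome 10, 127517123 to 127522444), was at 14.5, 15.8, 15.0 and 14.1 FPKM in wild type hearts and 21.3, 19.8, 16.9 and 21.2 FPKM in knockout hearts. The groups did not overlap, and the mean rose 1.33-fold (log2 change 0.39 ± 0.09 SE, limma adjusted p = 0.0235). The call of Shmt2 was lost without any 1 of the 4 wild type libraries (adjusted p of 0.0516 to 0.0642) and without knockout replicate 2 (0.0614). In the GENCODE M21 annotation 32 of its exon bases lie opposite Ndufa4l2, which was at 24.3 ± 3.90 FPKM in wild type hearts and 49.3 ± 4.83 FPKM in knockout hearts. The strandedness of the quantification is not given in the sources used here, and the part of this overlap in the result was not tested. Aldh1l2, a mitochondrial enzyme that turns formyl-tetrahydrofolate into carbon dioxide and NADPH, was at 3.92 ± 0.984 FPKM in wild type hearts and 3.31 ± 1.09 FPKM in knockout hearts (interval of the log2 change -0.65 to 0.24).

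The cytosolic enzymes did not pass the test, and neither did the mitochondrial Aldh1l2. Mthfd2l, counted below with the other folate genes, had a log2 change of -0.05 (limma adjusted p = 0.754). Mthfd1, the cytosolic trifunctional enzyme, was at 7.10 ± 0.837 FPKM in wild type hearts and 8.11 ± 1.06 FPKM in knockout hearts (limma adjusted p = 0.341). Shmt1 was at 4.38, 3.49, 3.19 and 4.62 FPKM in wild type hearts and 7.63, 7.16, 4.15 and 3.23 FPKM in knockout hearts, so that 2 knockout libraries were high and 2 were not (limma adjusted p = 0.318). The log2 change of Shmt1, 0.36 ± 0.22 SE, was close in size to that of Shmt2, 0.39 ± 0.09 SE, and differed mainly in spread. Mitochondrial and cytosolic genes were also set against each other within each library in 3 ratios, chosen after their values were seen. The ratio of Mthfd2 to Mthfd1 was 0.273, 0.376, 0.339 and 0.368 in wild type hearts and 0.581, 0.991, 0.528 and 0.873 in knockout hearts. That of Mthfd1l to Mthfd1 was 0.127 ± 0.0368 in wild type hearts and 0.274 ± 0.0407 in knockout hearts (SD, n = 4). The ratio of Shmt2 to Shmt1 was 3.90 ± 0.844 and 4.05 ± 1.79. The first 2 ratios did not overlap between groups and the third did. No test is given, since the genes were paired with the levels of both known.

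**Figure D3:**
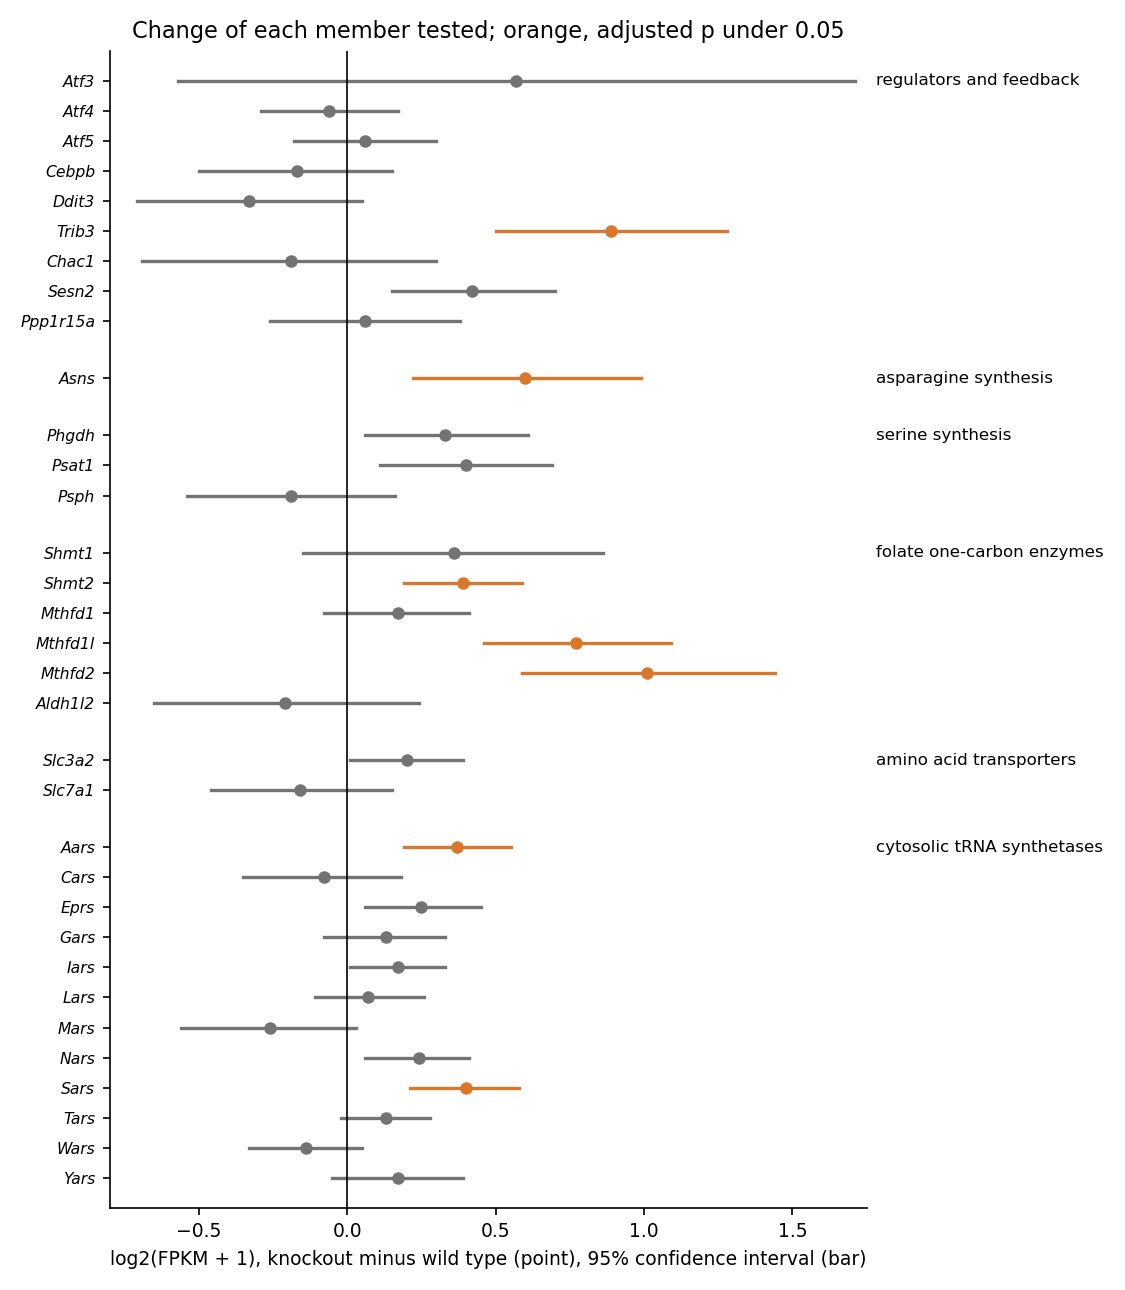
Change of each of the 33 tested members as the difference of log2(FPKM + 1), knockout minus wild type; the point is the estimate, the bar its 95% confidence interval, and orange marks an adjusted p under 0.05. The interval of Mthfd2 runs from 0.59 to 1.44, that of Atf4 from -0.29 to 0.17, and that of Atf3 is the widest, from -0.57 to 1.71.

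Of the amino acid transporters 0 of 2 tested members were called. Slc3a2, the heavy chain that carries several transporters to the membrane, was at 14.4 ± 1.34 FPKM in wild type hearts and 16.7 ± 1.03 FPKM in knockout hearts (log2 change 0.20 ± 0.08 SE, limma adjusted p = 0.148). Its wild type values were 13.9, 13.9 and 13.4 FPKM in replicates 1 to 3 and 16.4 FPKM in replicate 4. The cationic transporter Slc7a1 was at 9.13 ± 1.42 and 8.10 ± 1.45 FPKM. The cystine transporter Slc7a11 was at 0.0963 to 0.147 FPKM in wild type hearts and 0.112 to 0.151 FPKM in knockout hearts, a trace level in both.

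Among the cytosolic synthetase genes the largest log2 change was 0.40, that of Sars. Of 12 members 2 rose (16.7%, against 6.15% of all tested genes) and 0 fell, while 10 were not called, with a median log2 change of 0.15. Sars, for serine (chromosome 3, 108424865 to 108445209), was at 32.0, 35.5, 32.2 and 33.1 FPKM in wild type hearts and 45.0, 45.8, 38.5 and 47.0 FPKM in knockout hearts. The groups were apart and the mean rose 1.33-fold (log2 change 0.40 ± 0.08 SE, limma adjusted p = 0.0153), a call that held in 8 of 8 omissions. Aars, for alanine (chromosome 8, 111033144 to 111057664), was at 11.2, 12.3, 11.7 and 11.2 FPKM in wild type hearts and 15.2, 16.4, 13.6 and 16.0 FPKM in knockout hearts. Its mean rose 1.32-fold with no overlap (log2 change 0.37 ± 0.08 SE, limma adjusted p = 0.0181). The call of Aars was lost without wild type replicate 4 (0.0506) or knockout replicate 2 (0.0560). In GENCODE M21, 14.3% of the exon bases of Aars are shared with Exosc6 on the same strand. How reads there were assigned is not known, so the level of Aars is uncertain by an unknown amount. Cebpb shares 20.7% of its exon bases with Tmem189, Aldh1l2 14.1% with D10Wsu102e and Psph 10.4% with Cct6a, all on the opposite strand, and Ddit3 shares 6.13% with a second annotated gene of the same symbol on its own strand. The effect on the levels of these 4 members is unknown, and for the overlaps on the opposite strand it depends on the strandedness, which is not given.

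Another 4 synthetase genes had no overlap between groups but missed the threshold. With Sars and Aars, the knockout values lay above the wild type values in 6 of 12, against 10.3% of all tested genes. Nars was at 29.6 ± 1.01 FPKM in wild type hearts and 35.1 ± 2.90 FPKM in knockout hearts (limma adjusted p = 0.0791, but 0.0464 without knockout replicate 3). Eprs, which serves glutamate and proline, was at 17.8 ± 1.66 and 21.4 ± 1.26 FPKM (limma adjusted p = 0.0834). Iars and Tars had adjusted p of 0.141 and 0.233. Gars, Lars and Yars overlapped between groups, at log2 changes of 0.13, 0.07 and 0.17. The log2 change was below 0 in 3 synthetase genes, at -0.26 for Mars, -0.14 for Wars and -0.08 for Cars, and Mars was at 18.5, 23.8, 19.0 and 26.7 FPKM in wild type hearts and 20.3, 19.6, 16.5 and 15.9 FPKM in knockout hearts. On the FPKM scale, which is per length, the synthetase levels in wild type hearts ran from 7.85 FPKM for Cars to 33.9 FPKM for Gars, and Gars, Sars and Nars were the highest.

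**Figure D4:**
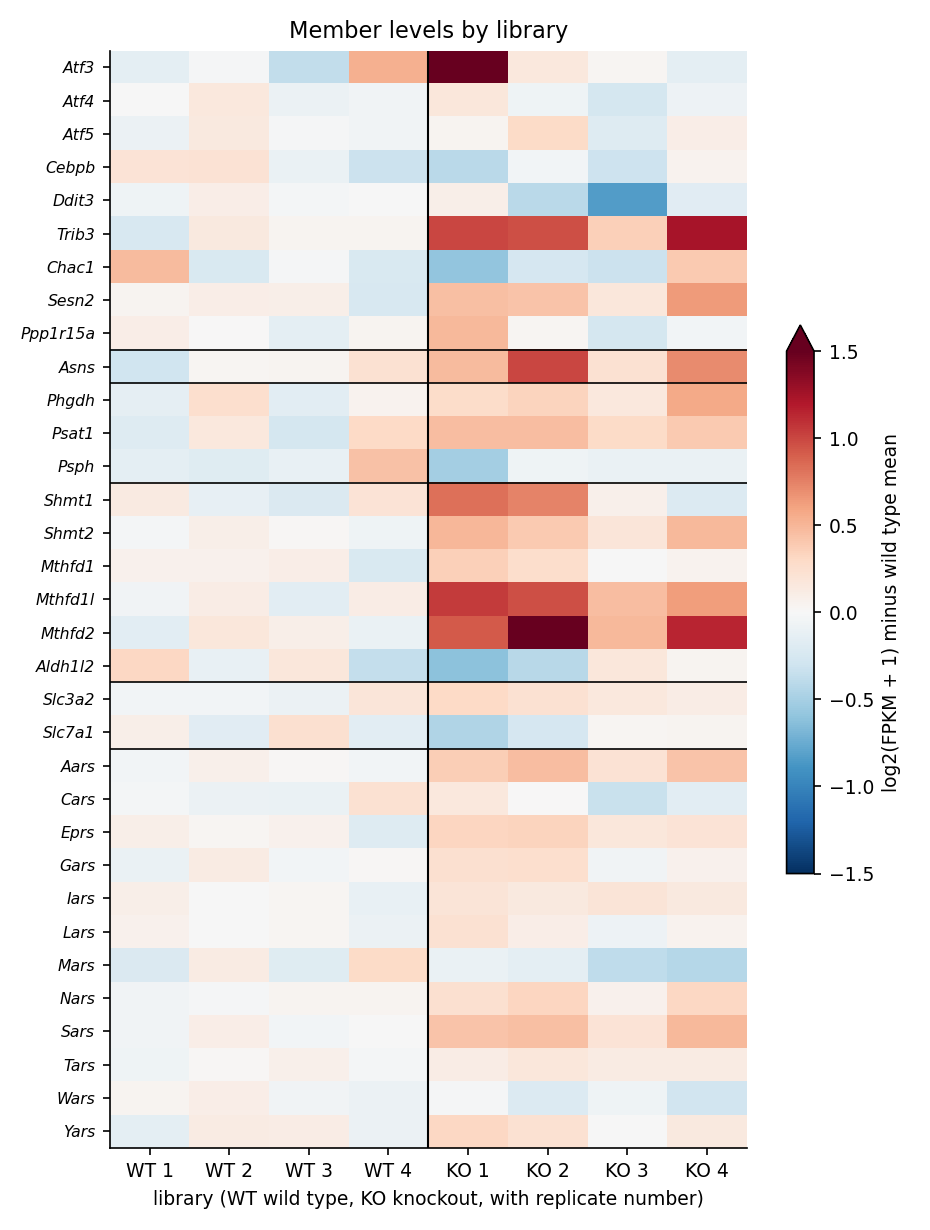
Each cell is the log2(FPKM + 1) of 1 tested member in 1 library minus the mean of the 4 wild type (WT) libraries, with knockout (KO) libraries on the right and lines between functional groups; colours saturate at 1.5. The knockout columns are redder in Mthfd1l, Mthfd2, Shmt2 and Trib3, the column of knockout replicate 3 is the palest there, and Atf3 in knockout replicate 1 is above the colour scale.

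The knockout libraries differed among themselves in the raised members. Knockout replicate 3 was the lowest knockout library in 7 of the 7, and in 30.1% of the 701 genes raised in all. It was also the lowest in 21 of the 33 tested members, but the share over all tested genes was not counted, so this may not be particular to the members. The highest knockout library was replicate 2 in 3 of the 7 (Asns, Mthfd2 and Aars), replicate 1 in 2 (Mthfd1l and Shmt2) and replicate 4 in 2 (Trib3 and Sars). These counts describe 4 libraries and were made after the values were seen.

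Other genes of the pathway were counted in 5 lists, also chosen with earlier results known, against 6.15% of all tested genes that rose. Of 15 genes for eIF2 kinases, eIF2, eIF2B and GCN1, 1 rose (6.67%), a share near that of all genes, and 0 fell. It was Eif2ak2, the interferon-inducible kinase PKR, at 2.81 ± 0.241 FPKM in wild type hearts and 4.35 ± 0.635 FPKM in knockout hearts (limma adjusted p = 0.0164, but 0.0587 without wild type replicate 2). The other kinase genes Eif2ak1 (for HRI), Eif2ak3 (for PERK) and Eif2ak4 (for GCN2) had adjusted p of 0.408, 0.255 and 0.969. Of 15 tested genes among other ATF4 targets 3 rose (20.0%) and 0 fell. Vldlr, a lipoprotein receptor that HIF also induces, rose from 29.3 ± 6.32 to 48.9 ± 8.64 FPKM (limma adjusted p = 0.0218), and the secreted factor Stc2 from 5.38 ± 0.906 to 8.24 ± 1.23 FPKM (adjusted p = 0.0283). The glutamine transporter Slc38a2 rose from 70.7 ± 11.5 to 100.3 ± 15.9 FPKM (limma adjusted p = 0.0480).

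Slc38a2 was called in 1 of 8 omissions, without knockout replicate 2, and its adjusted p was up to 0.132 without wild type replicate 2. Stc2 was called in 3 of 8, with the highest adjusted p, 0.0784, without knockout replicate 2; it was also lost on omission of wild type replicate 2, 3 or 4 or of knockout replicate 4. Vldlr was lost on omission of wild type replicate 2 or 4 or of knockout replicate 3, at up to 0.0609.

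Of 11 other cytosolic synthetase and scaffold genes 0 were called, with a median log2 change of -0.04. Of 17 mitochondrial synthetase genes 2 rose (11.8%, against 6.15% of all tested genes) and 0 fell. Mars2 was at 3.16 ± 0.281 FPKM in wild type hearts and 4.40 ± 0.537 FPKM in knockout hearts (limma adjusted p = 0.0359), and its cytosolic counterpart Mars had a log2 change of -0.26. Nars2 was at 4.40 ± 0.516 and 6.05 ± 0.581 FPKM (limma adjusted p = 0.0340). The call of Mars2 held in 2 of 8 omissions, those of knockout replicates 1 and 3, and its adjusted p was up to 0.0902 (without knockout replicate 2). That of Nars2 was lost in 4 of 8, those of replicates 2 and 4 of either group, at up to 0.0996. Of 19 tested genes among other folate, methionine and glycine genes 0 were called, with log2 changes of -0.19 to 0.23.

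**Figure D5:**
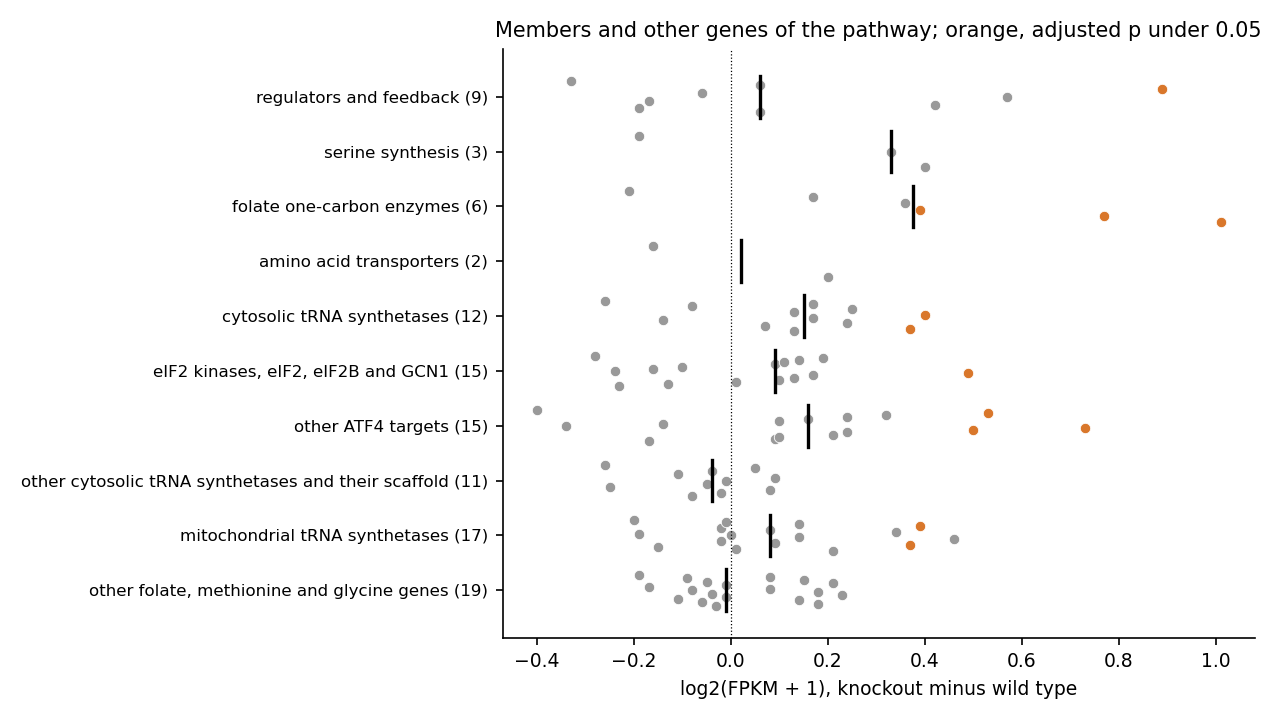
Each point is the difference of log2(FPKM + 1), knockout minus wild type, of 1 tested gene in the functional groups of members and in the other lists of the pathway, with the number of genes in brackets; orange marks an adjusted p under 0.05 and the black line the median. The folate enzymes have a median of 0.37 and 3 orange points, and the other folate, methionine and glycine genes a median of -0.01 and 0.

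The libraries also differed in cell markers, and their part in these results was not tested. In whole tissue, fewer cells of a type and less RNA per cell cannot be told apart. Cardiomyocyte markers were abundant in every library, with Myh6 at 2883 to 3836 FPKM, and 1 of 9 was called lower, against 6.01% of all tested genes. It was the cardiac troponin gene Tnni3, at 3975 ± 524 FPKM in wild type hearts and 2884 ± 179 FPKM in knockout hearts (limma adjusted p = 0.0169). Quantile normalisation gives the highest ranks the same values in every library, and Myh6 and Tnni3 share values such as 3836 FPKM. The change of Tnni3 is therefore a change of rank among the highest genes. The summed level of 6 fibroblast markers was 698 to 802 FPKM in wild type hearts and 431 to 604 FPKM in knockout hearts, and that of 8 macrophage and leukocyte markers 56.7 to 65.5 and 81.2 to 99.3 FPKM, mostly Lyz2. In these lists 2 of 6 fibroblast markers (Dcn and Lum) were called lower, against 6.01% of all tested genes. The other 4 were not called, and 1 of them, Tcf21, went the other way, at 17.0 ± 4.21 FPKM in wild type hearts and 18.0 ± 2.47 FPKM in knockout hearts. Of 5 tested macrophage and leukocyte markers 1 (Lyz2) was called higher, against 6.15%. The sum of 8 endothelial markers was 471 to 563 FPKM in wild type hearts and 428 to 477 FPKM in knockout hearts. Of these 8, 2 (Tek and Tie1) were called lower, against 6.01% of all tested genes, but the list was split. Pecam1 was not called, yet every knockout library (102 to 119 FPKM) was above every wild type library (89.7 to 100.1 FPKM). In 3 of the 8 every knockout library was below every wild type library, against 10.4% of all tested genes. For 7 erythroid markers the sums were 1235 to 5679 and 205 to 1519.7 FPKM, and 0 of 3 tested were called. The sum of 10 genes of dividing cells was 65.7 to 88.8 FPKM in wild type hearts and 19.1 (replicate 4) to 145 FPKM (replicate 1) in knockout hearts. Adipocyte markers overlapped, at 29.6 to 54.4 and 34.1 to 71.0 FPKM, and lymphocyte and liver markers summed to at most 2.88 FPKM. Airway markers summed to 1241 FPKM in wild type replicate 4 and to 0.481 FPKM or less in the others. Without that library 5 members rose, namely Mthfd1l, Mthfd2, Sars, Trib3 and, newly, Psat1, while the calls of Asns, Shmt2 and Aars were lost. Egln1 and Egln3, the genes of PHD2 and PHD3, were not called (limma adjusted p = 0.442 and 0.132; exact two-sided permutation p = 0.314 and 0.0857), and whole-heart values do not check an endothelial deletion.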

How the data were processed

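Heart RNA was isolated with an RNeasy kit and made into TruSeq libraries, 4 wild type and 4 knockout, per the labels' protocols. TopHat2 and Cufflinks on mm10 are named in the submitters' processing notes, without versions. The deposited table holds FPKM per gene and library; the unit is not named in it and was read from Cufflinks and the values. The authors quantile normalised it (the 39 highest ranks hold 1 value in all 8 columns), so depth and counting error are unknown.

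The 11390 genes whose mean was 1 FPKM or more were compared on log2(FPKM + 1) with limma 3.58.1 under R 4.3.3, with no covariate (lmFit, then eBayes with trend and robust set), adjusted after Benjamini-Hochberg and called at adjusted p under 0.05. The self-test on simulated data ran before. For Egln1 and Egln3 there was also an exact permutation test under Python 3.11.15. Every member was named, as was every called gene of the other pathway lists (at most 4 a list); called marker genes were named after their values were seen. Members and lists were chosen with earlier results of these data known. Coordinates are from GENCODE M21 and promoters from RefSeq GRCm38.p6. Alternatives changed pseudocount, filter, scaling, variance model, weights, minimum change and replicate block, or left out each library. Omission of both replicates 4 was added after seeing the data.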

Additional observations from a re-analysis of the deposited data

Results flagged for a closer look

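Among 72 sets of 4 libraries (36 members in 2 groups), 6 held 1 library far from the other 3. The cutoff flags about 1 in 20 sets of independent normal values, and FPKM values need be neither normal nor independent between genes. The wild type set of Fgf21, at 0 in every library, could not be judged. In the knockout group replicate 1 was high in Atf3 (21.9 FPKM) and Gdf15 (3.00 FPKM) and low in Psph (4.92 FPKM). In the wild type group replicate 4 was high in Psph (10.4 FPKM) and Slc3a2 (16.4 FPKM) and low in Mthfd1 (5.86 FPKM). Wild type replicate 4 is also the library with airway transcripts.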

How the results depend on the processing

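The number of members that rose was 7 and stayed within 1.5 times of it with other pseudocounts, scalings, weights, no filter, a plain variance model and without both replicates 4. It was 3 with a filter at 5 FPKM, which leaves out the low members, and 4 with the replicate block. It was 0 with the minimum change, a limma test of whether a change exceeds 1.5-fold. Omissions gave 4 (knockout replicate 2) to 9 (knockout replicate 3). The number that fell was 0 under every alternative run. All genes called, 1385 in the main analysis, were 613 with the replicate block and 37 with the minimum change, and 575 (wild type replicate 2 omitted) to 1820 (knockout replicate 1 omitted) in omissions; the cause was not tested. Whether replicate numbers pair animals or litters is not stated in the labels. Same-numbered libraries correlated at -0.226, 0.0093, 0.102 and -0.0966 in their deviations from the group means. Not every library correlated best with its own number. These correlations do not decide whether libraries are paired, since the deviations within a group depend on each other. The replicate block ended the calls of the members Asns (0.0683), Shmt2 (0.0745) and Aars (0.0615) and, in the other lists, of Stc2 (0.0691), Slc38a2 (0.0618), Mars2 (0.110) and Nars2 (0.106). Directions turned in uncalled genes near 0. The log2 change of Atf4 ran from -0.14 (without knockout replicate 1) to 0.01 (without knockout replicate 3) in omissions, that of Atf5 from -0.02 (without knockout replicate 2) to 0.14, that of Ppp1r15a from -0.09 (without knockout replicate 1) to 0.16, and without both replicates 4 Cars was at 0.02 and Egln1 at -0.0041. Over all 41 single genes followed, 679 values kept direction and side of the threshold, 75 lost the call, 8 gained it and 5 turned direction. With array weights 2028 genes were called.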
